A study of Mus musculus with 12 samples.

Results

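The cathepsin family is described here through 10 mouse genes, Ctsa, Ctsb, Ctsc, Ctsd, Ctse, Ctsh, Ctsk, Ctsl, Ctss and Ctsz, which were chosen by symbol and found by Ensembl identifier among the 32688 genes of the count table. All 10 passed the filter on low counts, which left 18066 genes to test. The libraries came from RAW264.7 cells, a mouse macrophage line, of 2 genotypes: Null cells, which carry no knockout, and TFEB/TFE3 DKO cells, in which both transcription factor genes were disrupted with CRISPR-Cas9. Each genotype was sampled as control and after 8 h in 100 µM etoposide, a topoisomerase II poison that breaks DNA, which gave 4 groups of 3 libraries. Control cells are untreated by the labels and DMSO-treated by the methods of the study, and all cells were grown in high-glucose DMEM with fetal bovine serum. With a single line per genotype, replicates measure the spread of cultures or libraries within it, and a difference between genotypes cannot be told apart from a difference between 2 lines.

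Cathepsins are the proteases of the lysosome and endosome. Most are papain-like cysteine proteases (Ctsb, Ctsc, Ctsh, Ctsk, Ctsl, Ctss and Ctsz), Ctsd and Ctse are aspartic proteases, and Ctsa is a serine carboxypeptidase. They are made as inactive proenzymes, carried to lysosomes largely through mannose 6-phosphate receptors, and matured at low pH, and in macrophages they degrade engulfed protein and trim antigens. Cystatins hold the cysteine cathepsins in check. TFEB and TFE3 are bHLH-zipper factors known to activate lysosomal genes through E-box sequences with the core CACGTG.

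Differences were called at an adjusted p under 0.05 over all genes tested with limma-trend, the method the study used. Depth ran from 29837255 to 61809316 counts per library. The targeted transcripts were lower but not lost in the libraries labelled DKO: Tfe3 stood at 89.4 to 119 CPM (counts per 1000000 of the scaled library size) in Null control and 31.5 to 42.5 CPM in DKO control libraries, and Tfeb at 16.6 to 17.2 and 3.14 to 5.25 CPM. After etoposide Tfe3 differed by -1.43 log2 between genotypes and Tfeb by -0.79 log2 (limma-trend, adjusted p = 1.88e-06 and 0.00179). All 8 macrophage markers were detected in every library, with a summed level of 4193 to 5132 CPM. The titles of the 3 DKO etoposide libraries also hold the word MEFs, the name of embryonic fibroblasts; the 8 fibroblast markers summed to 1.01 to 1.20 CPM there and to 1.91 to 2.04 CPM in Null etoposide libraries, and no single one exceeded 1.38 CPM in any library.

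Libraries of the same group differed from each other along 1 axis that touched several cathepsins, most widely in the control groups. The first component of the deviations from the group means held 43.1% of the variance within groups, with Null control replicate 1 at 0.46 and DKO control replicate 1 at -0.56, the 2 ends of its range. The DKO etoposide libraries spread along it too, with replicates 2 and 3 at -0.26 and 0.27. Over the 12 libraries the deviations of Ctsb, Ctsd, Ctsh and Ctsl followed this component (r = 0.99, 0.97, 0.85 and 0.63), whereas those of Ctsz, Ctss, Ctsa and Ctsc ran against it (r = -0.97, -0.92, -0.85 and -0.84). An r of at least 0.8 in size was found for 37.9% of all tested genes. Gapdh, named after its values were seen, followed it as well, at 1006, 543 and 348 CPM in Null control and 313, 952 and 1080 CPM in DKO control libraries. These correlations are descriptions over libraries that define the component, and the origin of the axis was not tested. The fit was therefore also made without the 2 libraries at its ends, a choice made after the spread had been seen. Its values are given wherever they change a call of 1 of the 10 members, and the genes of other lists were not read in that fit. The Null control libraries kept in it score -0.07 and -0.39 on the component, and the DKO control libraries 0.18 and 0.38. In control cells of that fit the axis and the genotype therefore cannot be told apart, which limits the calls it gained.

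**Figure D1:**
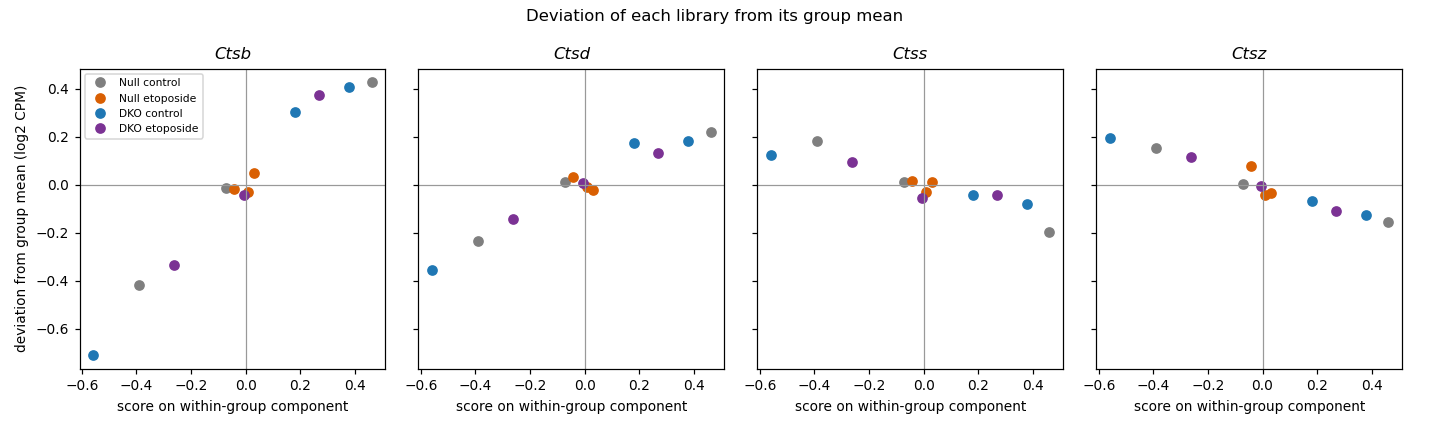
Deviation of each of the 12 libraries from its group mean (y axis, log2 CPM) against its score on the first within-group component (x axis, no unit) for Ctsb, Ctsd, Ctss and Ctsz; each point is 1 library, coloured by group. Ctsb and Ctsd rise along the component and Ctss and Ctsz fall, with DKO control replicate 1 and Null control replicate 1 at the ends and the 3 Null etoposide libraries close to 0.

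The order of levels between genes is given per kilobase of merged exons. In Null control cells Ctss was highest (326 ± 42.4 CPM per kb, SD, n = 3), followed by Ctsd (293 ± 45.8), Ctsz (269 ± 28.9) and Ctsb (196 ± 57.1), and the ranges of neighbours in this order overlapped from Ctss down to Ctsb. Ctsa followed at 95.9 ± 7.51 CPM per kb, apart from both its neighbours. Ctse (24.8 ± 0.696) and Ctsl (23.9 ± 0.400) overlapped, and Ctsc (13.9 ± 1.47), Ctsh (7.07 ± 0.617) and Ctsk (0.106 ± 0.114) lay below them without overlap. With coding length in place of merged exons Ctsb took place 1 in Null control cells and Ctss place 3, and Ctsl and Ctse exchanged places.

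The order per kilobase shifted between groups. In DKO control cells Ctsd stood first and apart (398 ± 79.3 CPM per kb), with Ctss, Ctsz and Ctsb overlapping below it, and Ctse was at place 8 (1.00 ± 0.0566). After etoposide Ctsd led in both lines, at 396 ± 7.69 CPM per kb in Null and 762 ± 72.6 in DKO cells, followed without overlap by Ctsz and then Ctss. In DKO etoposide cells Ctsh (1.31 ± 0.221) and Ctse (1.18 ± 0.256) overlapped near the bottom. Averaged over all libraries, Ctsd ranked 86 of 17984 genes with an annotated length, Ctsz 144, Ctss 157 and Ctsb 270, whereas Ctsk ranked 16797. The places of Ctsd may include reads of Gm49369, a gene that shares exonic bases with it, as given below. The leading places rest on the length used. With coding length Ctsb stood first in DKO control (1122 ± 412 CPM per kb) and overlapped Ctsd (761 ± 152), and in Null etoposide cells Ctsd (757 ± 14.7) overlapped Ctsb (751 ± 22.7). In DKO etoposide cells Ctsd led with each of the lengths tried, followed by Ctsb instead of Ctsz with coding length.

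**Figure D2:**
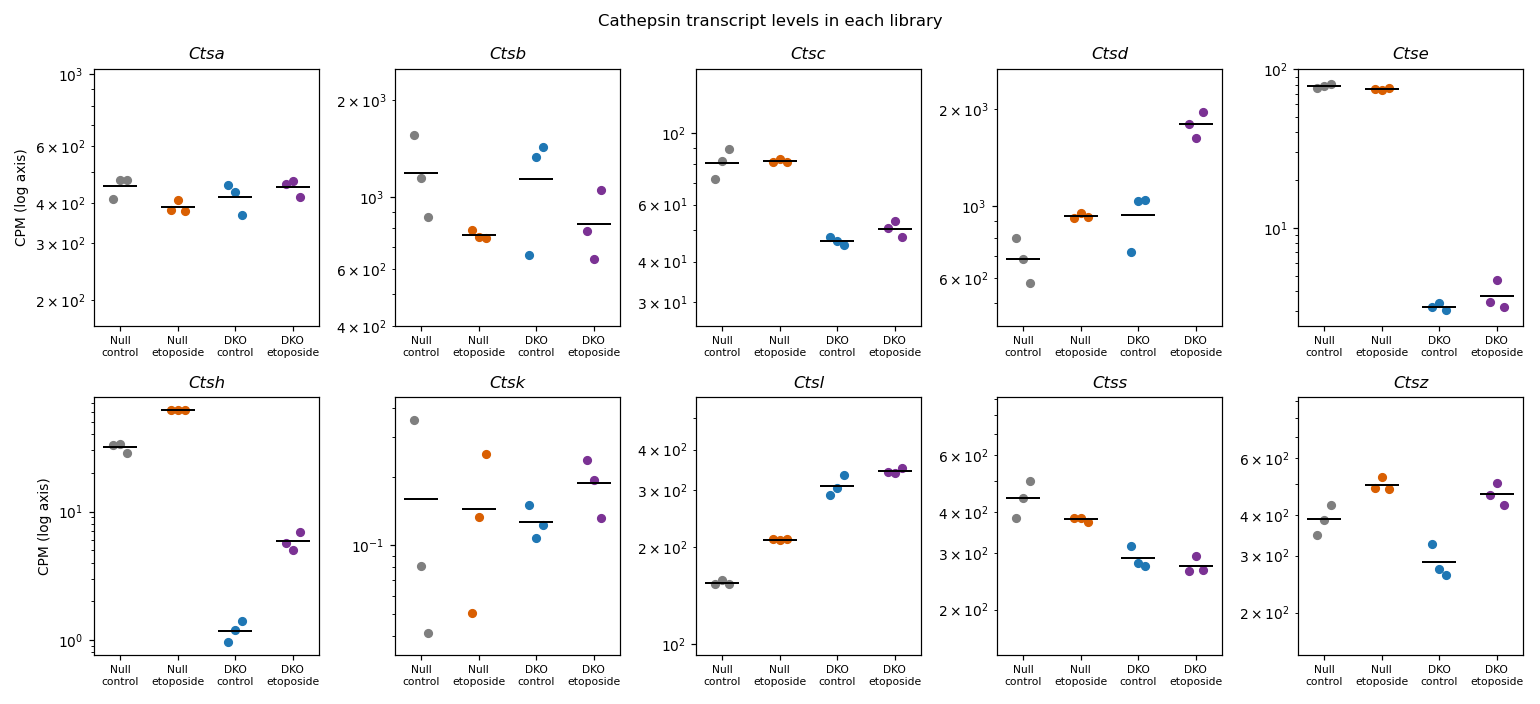
CPM of each cathepsin gene (y axis, log scale, scaled library sizes) in the 12 libraries by group (x axis); points are single libraries and bars are group means of 3. Ctse and Ctsh lie far lower in both DKO groups, Ctsl lies higher in both, and Ctsd reaches its highest values, 1620 to 1961 CPM, in DKO etoposide libraries.

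The 2 genes with the widest gap between the lines were Ctse and Ctsh. Ctse, an endosomal aspartic protease of immune and gastric cells (ENSMUSG00000004552, mm10 chr1:131638306-131675505, plus strand), stood at 76.4, 78.3 and 80.8 CPM in Null control and at 3.16, 3.38 and 3.02 CPM in DKO control libraries. After etoposide it stood at 75.2, 74.5 and 76.6 CPM in Null and 3.40, 4.67 and 3.16 CPM in DKO libraries. The lines did not overlap under either treatment, and the treatments overlapped within each line. The difference of DKO from Null was -4.60 ± 0.12 log2 (SE) in control cells and -4.33 ± 0.12 after etoposide (limma-trend, adjusted p = 1.26e-10 and 9.54e-11), a mean 24.7-fold and 20.2-fold lower in DKO cells. Etoposide moved Ctse by -0.06 log2 in Null cells (95% interval -0.32 to 0.21) and by 0.21 in DKO cells (-0.06 to 0.48), neither past the threshold (adjusted p = 0.747 and 0.201). Absence of overlap, stated here and for the genes below, was common over all tested genes. Between lines it held for 27.6% of them in control and 55.6% after etoposide. Between treatments it held for 53% in Null and 46.4% in DKO cells.

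Ctsh, a lysosomal aminopeptidase (ENSMUSG00000032359, chr9:90054152-90076089, plus strand), was low in DKO cells and rose with etoposide in both lines. Its levels were 33.1, 33.7 and 28.6 CPM in Null control and 61.5, 62.0 and 61.5 CPM in Null etoposide libraries. In DKO libraries they were 0.958, 1.18 and 1.40 CPM in control and 5.67, 5.04 and 6.99 CPM after etoposide. No 2 groups overlapped. Ctsh was 26.9-fold lower in DKO than in Null cells in control (-4.69 ± 0.14 log2, adjusted p = 4.74e-10) and 10.5-fold lower after etoposide (-3.39 ± 0.14, adjusted p = 2.89e-09). The rise with etoposide was 0.96 ± 0.14 log2 in Null and 2.27 ± 0.14 in DKO cells (adjusted p = 0.000208 and 1.01e-07). The response of DKO cells exceeded that of Null cells by 1.31 ± 0.20 log2 (95% interval 0.86 to 1.75, adjusted p = 0.00126), and over the alternative analyses this excess ran from 1.16 to 1.44 with adjusted p of at most 0.00586. On the CPM scale the gain was smaller in DKO cells, which remained below every Null library.

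Ctsd, the main aspartic protease of lysosomes (ENSMUSG00000007891, chr7:142375911-142388038, minus strand), rose with etoposide in both lines and was highest in DKO cells after etoposide. Its levels were 795, 688 and 580 CPM in Null control and 917, 951 and 924 CPM in Null etoposide libraries. In DKO libraries they were 721, 1041 and 1046 CPM in control and 1795, 1620 and 1961 CPM after etoposide, the highest group of the 4 and apart from the rest. Etoposide raised Ctsd by 0.95 ± 0.15 log2 in DKO cells (adjusted p = 0.000257) and by 0.45 ± 0.15 in Null cells (adjusted p = 0.0302). After etoposide DKO cells exceeded Null cells by 0.94 ± 0.15 log2 (adjusted p = 0.000338), and in control cells the difference was 0.44 (95% interval 0.11 to 0.76, adjusted p = 0.0607). That control difference passed the threshold with DESeq2 (0.43, adjusted p = 0.0415), without Null control replicate 1 (0.55, adjusted p = 0.0265) and without DKO control replicate 1 (0.60, adjusted p = 0.0024).

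The call of the rise of Ctsd in Null cells was lost in 6 of the fits that left out 1 library (without Null control replicate 2 or 3, any 1 Null etoposide replicate, or DKO etoposide replicate 1), where the rise ran from 0.33 to 0.46 log2 with adjusted p from 0.0513 to 0.11. With the replicate number as a block the rise was 0.45 log2 and was not called either (adjusted p = 0.0616). Without the 2 libraries at the ends of the within-group axis it was 0.55 log2 (adjusted p = 0.000155), and the difference between lines in control was then 0.71 (adjusted p = 7.01e-05). The larger response of DKO cells, 0.51 log2, was not past the threshold (95% interval 0.05 to 0.96, adjusted p = 0.187). Ctsd shares 808 exonic bases on the same strand with Gm49369, a protein-coding gene whose counts were 0.542 to 0.641 times those of Ctsd, so reads from the 2 cannot be fully told apart. At the mean count per exonic base of Gm49369, the shared bases would hold counts equal to 42.8 to 50.6% of those of Ctsd. This also limits the places per kilobase and the shares of the summed level given for Ctsd. Gm49369 differed by 0.94 log2 with etoposide in DKO cells and by 1.04 between lines after etoposide (adjusted p = 0.00287 and 0.00171). It was not called with etoposide in Null cells (0.38, adjusted p = 0.168), between lines in control (0.48, adjusted p = 0.136) or for the difference of responses (0.56, adjusted p = 0.307).

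Ctsl, a cysteine endopeptidase (ENSMUSG00000021477, chr13:64359337-64370890, minus strand), was higher in DKO than in Null cells. It stood at 153, 158 and 154 CPM in Null control and 211, 209 and 212 CPM in Null etoposide libraries. In DKO libraries it stood at 290, 304 and 334 CPM in control and 340, 339 and 351 CPM after etoposide. No 2 groups overlapped, and every DKO library lay above every Null library. The difference between lines was 0.99 ± 0.07 log2 in control and 0.70 ± 0.07 after etoposide (adjusted p = 2.88e-07 and 3.81e-06). Etoposide raised Ctsl in Null cells by 0.44 ± 0.07 log2 (adjusted p = 0.000182). In DKO cells the change was 0.15 (95% interval 0.01 to 0.30, adjusted p = 0.0843) and the difference of the 2 responses was -0.29 (-0.49 to -0.09, adjusted p = 0.0789). That difference passed the threshold without DKO control replicate 1 (-0.31, adjusted p = 0.0451), without both end libraries (-0.31, adjusted p = 0.0263), with DESeq2 (-0.28, adjusted p = 0.0378) and with a minimum mean of 1 CPM (-0.31, adjusted p = 0.047). The change in DKO cells passed it with library size alone (0.21, adjusted p = 0.013), with DESeq2 (0.16, adjusted p = 0.0486) and without DKO control replicate 3 (0.21, adjusted p = 0.0262). Ctsl also overlaps an antisense gene (1742 exonic bases) and a pseudogene (395), neither analysed here.

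Ctss and Ctsc were lower in DKO cells under both treatments. Ctss, an endopeptidase that trims the class II invariant chain and stays active at neutral pH (ENSMUSG00000038642, chr3:95526786-95556403, plus strand), stood at 384, 444 and 499 CPM in Null control and 314, 279 and 272 CPM in DKO control libraries. After etoposide it stood at 385, 385 and 373 CPM in Null and 264, 292 and 266 CPM in DKO libraries. The lines did not overlap under either treatment, and the differences were -0.61 ± 0.10 and -0.48 ± 0.10 log2 (adjusted p = 0.000517 and 0.002). Etoposide changed Ctss by -0.21 log2 in Null cells (95% interval -0.42 to 0.00, adjusted p = 0.11), a value that was -0.31 with adjusted p = 0.0163 without Null control replicate 1, and by -0.07 in DKO cells (-0.28 to 0.13). Without both end libraries the Null change of Ctss was -0.31 (adjusted p = 0.00263) and the DKO response exceeded it by 0.31 (adjusted p = 0.0476).

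Ctsc, or dipeptidyl peptidase I, which activates granule serine proteases (ENSMUSG00000030560, chr7:88278085-88310888, plus strand), stood at 72.0, 81.8 and 89.0 CPM in Null control and 47.6, 46.2 and 45.0 CPM in DKO control libraries. After etoposide it stood at 81.3, 83.0 and 81.5 CPM in Null and 50.7, 53.4 and 47.6 CPM in DKO libraries. Every DKO library lay below every Null library, by -0.80 ± 0.08 log2 in control and -0.70 ± 0.08 after etoposide (adjusted p = 1.24e-05 and 2.61e-05). The change with etoposide was 0.02 log2 in Null cells (95% interval -0.15 to 0.20) and 0.13 in DKO cells (-0.05 to 0.30).

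Ctsz, a cysteine carboxypeptidase also called cathepsin X (ENSMUSG00000016256, chr2:174427493-174439039, minus strand), rose with etoposide in both lines. It stood at 347, 387 and 430 CPM in Null control and 485, 525 and 482 CPM in Null etoposide libraries. In DKO libraries it stood at 327, 272 and 261 CPM in control and 463, 502 and 430 CPM after etoposide. Control and etoposide libraries did not overlap in either line, and the rise was 0.36 ± 0.10 log2 in Null and 0.70 ± 0.10 in DKO cells (adjusted p = 0.0157 and 0.000185). The lines differed in control cells (-0.44 ± 0.10, adjusted p = 0.00992), whereas after etoposide they overlapped (-0.10, 95% interval -0.33 to 0.13, adjusted p = 0.512).

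The Null rise of Ctsz lost its call without Null control replicate 1 (0.28 log2, adjusted p = 0.0587) or Null etoposide replicate 2 (0.32, adjusted p = 0.0662), and the control difference lost it when only those 2 groups were fitted (adjusted p = 0.0792). The difference of the 2 responses, 0.34 log2 (95% interval 0.02 to 0.66, adjusted p = 0.213), passed the threshold without DKO control replicate 1 (0.46, adjusted p = 0.0386) and without both end libraries (0.53, adjusted p = 0.00454).

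Ctsb and Ctsa were called in none of the 5 comparisons by limma-trend fitted to all 12 libraries, though some alternative fits called them. Ctsb, an abundant endopeptidase and dipeptidyl carboxypeptidase (ENSMUSG00000021939, chr14:63122462-63145923, plus strand), ranged widely in control cells, at 1553, 1146 and 866 CPM in Null and 661, 1331 and 1431 CPM in DKO libraries. After etoposide it stood at 790, 754 and 747 CPM in Null and 788, 644 and 1052 CPM in DKO libraries. All Null etoposide libraries lay below all Null control libraries, yet the difference was -0.60 log2 with a 95% interval of -1.21 to 0.02 (adjusted p = 0.116). In DKO cells it was -0.41 (-1.03 to 0.20, adjusted p = 0.279). Without DKO control replicate 1, the lowest of its group, the 2 values became -0.61 (adjusted p = 0.0286) and -0.76 (adjusted p = 0.0177), and without both end libraries the second was -0.76 (adjusted p = 0.00513); the Null value also passed when only the 2 Null groups were fitted (adjusted p = 0.0299). The difference between lines was -0.10 in control cells (-0.71 to 0.52) and 0.09 after etoposide (-0.53 to 0.70). Ctsb shares 774 exonic bases with Fdft1 on the opposite strand, whose counts were at most 3.18% of those of Ctsb.

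Ctsa, the carboxypeptidase that protects lysosomal β-galactosidase and neuraminidase (ENSMUSG00000017760, chr2:164832873-164841032, plus strand), stood at 411, 473 and 472 CPM in Null control and 381, 408 and 379 CPM in Null etoposide libraries. In DKO libraries it stood at 456, 433 and 368 CPM in control and 458, 468 and 416 CPM after etoposide. The Null groups did not overlap, with a difference of -0.21 log2 (95% interval -0.42 to -0.01, adjusted p = 0.0933), and the DKO groups did, with a difference of 0.10 (-0.11 to 0.30). The Null difference passed the threshold without Null control replicate 1 (-0.28, adjusted p = 0.0384), without DKO control replicate 1 (-0.23, adjusted p = 0.0433) and with DESeq2 (-0.22, adjusted p = 0.0446). Between lines Ctsa differed by -0.11 log2 in control (-0.32 to 0.09) and by 0.20 after etoposide (-0.01 to 0.40, adjusted p = 0.126; 0.027 when only those groups were fitted). Without both end libraries Ctsa passed in 4 comparisons, at -0.29 log2 for etoposide in Null cells (adjusted p = 0.00876), -0.26 and 0.20 between lines in control and after etoposide (adjusted p = 0.0289 and 0.0373) and 0.46 for the difference of responses (adjusted p = 0.0115). Ctsa shares 495 exonic bases with Pltp and 324 with Neurl2 on the opposite strand, whose counts were at most 12.5% and 2.14% of those of Ctsa, and the strand setting of the counting is not stated.

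Ctsk, the collagen-degrading cathepsin of osteoclasts (ENSMUSG00000028111, chr3:95499256-95509362, plus strand), was close to absent. It had 11, 4 and 2 counts in Null control, 8, 6 and 4 in DKO control, 3, 7 and 13 in Null etoposide and 13, 11 and 8 in DKO etoposide libraries. The groups overlapped, and no difference was detectable at this depth: its 95% intervals ran from -1.05 to 1.15 log2 for etoposide in Null cells and from -0.71 to 1.49 in DKO cells. Ctsk lies 17423 bases from Ctss, whose level was at least 264 CPM in every library.

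**Figure D3:**
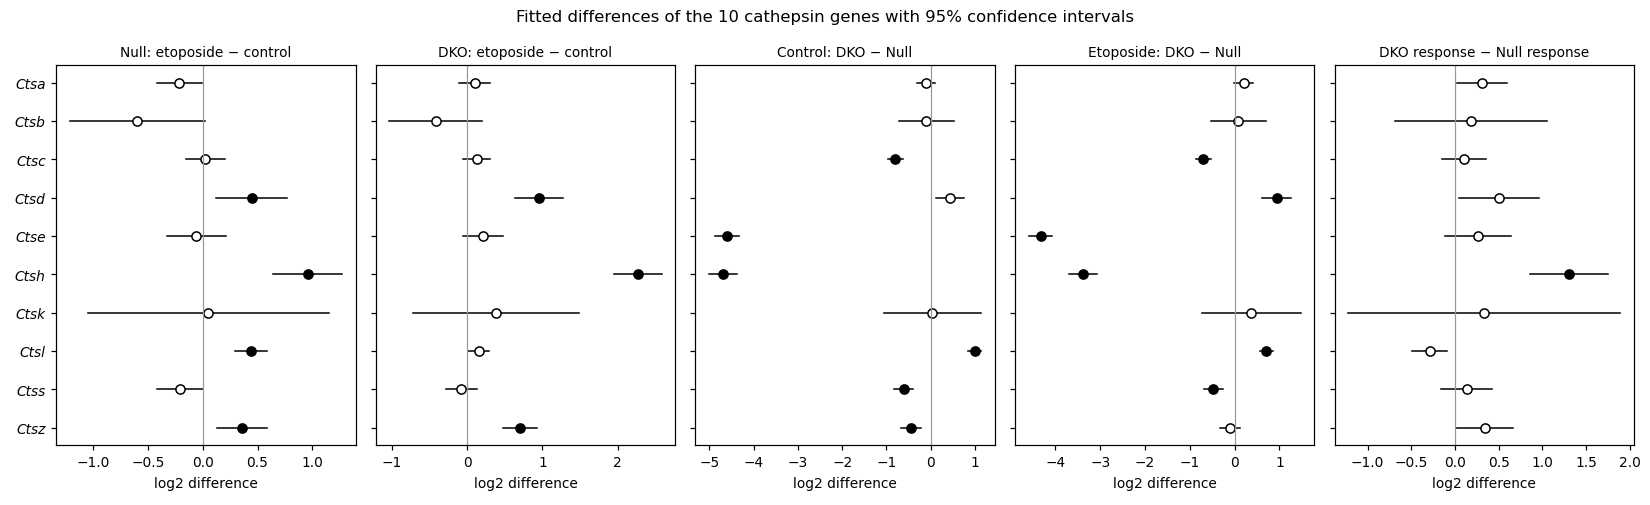
Fitted log2 differences (x axis, scale differs between panels) of the 10 cathepsin genes (y axis) in the 5 comparisons, with 95% confidence intervals from limma-trend; filled points have an adjusted p under 0.05 over all genes tested. Filled points number 4, 3, 6, 6 and 1 from left to right, and the right-hand panel, the DKO response minus the Null response, is filled for Ctsh alone.

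Counted over the family, etoposide raised 4 of the 10 genes in Null cells (Ctsd, Ctsh, Ctsl and Ctsz) and lowered 0, where 39.6% of all tested genes were called, 20.9% of them higher and 18.7% lower as shares of all tested. In DKO cells it raised 3 (Ctsd, Ctsh and Ctsz) and lowered 0, against 39.3% of all genes called, 20.2% higher and 19.1% lower. In either direction these shares are near or below the background. Without Null etoposide replicate 2 the count raised in Null cells was 2 in place of 4. Over the fits that left out 1 library, 5900 to 8036 of all genes were called in that comparison. Both lines have a count of 0 lower genes under limma-trend with an adjusted p; at an unadjusted p under 0.05 the count was 1 in Null (Ctsa) and 0 in DKO cells. edgeR's quasi-likelihood test lowered 0 in both lines, and DESeq2 lowered 1 in Null (Ctsa) and 0 in DKO cells. In Null cells limma-trend lowered 2 without Null control replicate 1 (Ctsa and Ctss), without DKO control replicate 1 (Ctsa and Ctsb) or without both end libraries (Ctsa and Ctss), and 1 when only the 2 Null groups were fitted (Ctsb). In DKO cells it lowered 1 (Ctsb) without DKO control replicate 1 or without both end libraries. The median difference over the 10 genes was 0.04 log2 in Null and 0.18 in DKO cells, beside 0.03 and 0.03 over all genes.

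Between lines, 6 of the 10 genes differed in control cells, 1 higher in DKO (Ctsl) and 5 lower (Ctsc, Ctse, Ctsh, Ctss and Ctsz), where 19.3% of all genes were called, 10.9% higher and 8.39% lower. After etoposide 6 differed, 2 higher (Ctsd and Ctsl) and 4 lower (Ctsc, Ctse, Ctsh and Ctss), where 33.6% of all genes were called, 15.9% higher and 17.8% lower. The median over the 10 genes was -0.28 log2 in control and -0.01 after etoposide, beside 0.00 and -0.01 over all genes. The response to etoposide differed between lines for 1 of the 10, where 9.45% of all genes were called, 3.07% with a larger value in DKO cells and 6.39% with a smaller one. These counts changed with the end libraries: 3 members were called without DKO control replicate 1, and without both end libraries 5 members and 3731 genes in place of 1708. The count of all genes that differed between lines in control, 3490, became 7434 without both end libraries, where 8 members were called, and 2073 when only those groups were fitted, with 5 members called. Without both end libraries the kept Null and DKO control libraries lie on opposite sides of the within-group axis. Axis and line cannot be told apart in the counts of that fit. The comparisons share libraries, so their counts are not independent.

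**Figure D4:**
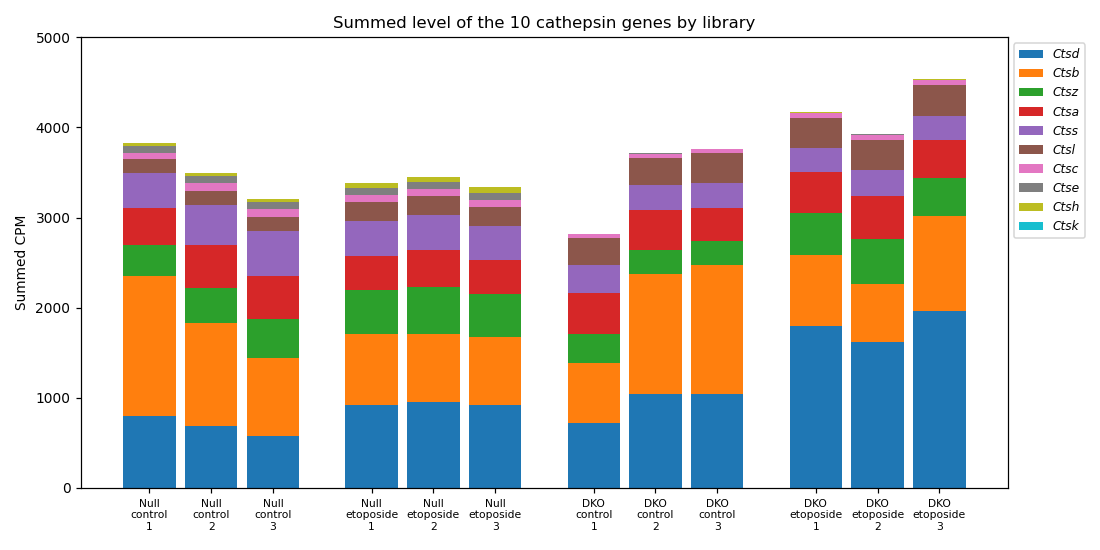
Summed CPM of the 10 cathepsin genes in each library (y axis, from 0), stacked by gene, for the 12 libraries in 4 groups (x axis). The sum lies between 2820 and 4533 CPM, and Ctsd fills 41.2 to 43.3% of it in the DKO etoposide libraries, 25.6 to 28.1% in DKO control, 27.1 to 27.7% in Null etoposide and 18.1 to 20.8% in Null control libraries.

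The summed level of the 10 genes was 3505 ± 313 CPM in Null control, 3392 ± 58.7 in Null etoposide, 3432 ± 530 in DKO control and 4210 ± 304 in DKO etoposide cells (SD, n = 3 each). The first 3 groups overlapped, and the DKO etoposide libraries, at 3929 to 4533 CPM, lay above them. Shares of this sum are in CPM, without scaling for length, so they follow each gene across groups and do not rank genes. Ctsb gave 27.1 to 40.6% of it in Null control, 23.4 to 38.0% in DKO control, 21.8 to 23.3% in Null etoposide and 16.4 to 23.2% in DKO etoposide libraries, so that the lines overlapped under both treatments. Ctsl gave 4.01 to 4.80% in Null control, 8.18 to 10.3% in DKO control, 6.06 to 6.34% in Null etoposide and 7.74 to 8.63% in DKO etoposide libraries, higher in DKO libraries under both. Ctse gave at most 2.53% and Ctsh at most 1.84% of it in any library. These are levels in bulk RNA, in which fewer expressing cells and less RNA per cell cannot be told apart.

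Other cathepsin genes were mostly silent. Of 13 further cathepsin symbols, 8 were in the table and 3 passed the filter. Ctsf, a papain-like protease with a cystatin-like propeptide, stood at 22.7 to 30.8 CPM in Null control and 73.8 to 76.5 CPM in Null etoposide libraries. In DKO libraries Ctsf stood at 49.7 to 59.6 CPM in control and 87.3 to 104 CPM after etoposide, so that no 2 groups overlapped. Etoposide raised it by 1.48 log2 in Null and 0.82 in DKO cells (adjusted p = 5.88e-07 and 8.32e-05), and the DKO response was smaller by 0.66 log2 (-0.66, adjusted p = 0.0181), whereas that of Ctsh was larger. Ctso was higher in DKO cells in control (0.59 log2, adjusted p = 0.00305) and after etoposide (0.41, adjusted p = 0.0183), and etoposide lowered it in DKO cells (-0.38, adjusted p = 0.0223).

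Among 22 listed inhibitors of cathepsins 14 were in the table and 4 were tested. Cst3, or cystatin C, the main secreted inhibitor, fell with etoposide by 1.01 log2 in Null cells (-1.01, adjusted p = 4.3e-07) and by 0.46 in DKO cells (-0.46, adjusted p = 0.000289). In control libraries it was lower in DKO, at 555 to 579 CPM against 773 to 805 CPM. Cstb, the cytosolic stefin B, rose with etoposide by 0.90 log2 in Null and 0.72 in DKO cells (adjusted p = 0.00569 and 0.0197). Cst7, or cystatin F, which inhibits Ctsc and is stored in endosomes, rose from 1.78 to 2.04 CPM in Null control to 4.28 to 4.45 CPM after etoposide, and from 3.96 to 4.20 to 9.43 to 11.4 CPM in DKO libraries. Of the 4 tested, 2 rose and 1 fell with etoposide in each line, where 39.6% and 39.3% of all genes were called. In control cells 2 were higher in DKO (Cst7 and Ctla2b, the latter under 1.10 CPM) and 1 was lower, where 19.3% of all genes were called.

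Of 6 other lysosomal peptidases, 1 rose and 1 fell in each line with etoposide, beside the 39.6% and 39.3% of all genes called. Tpp1, a tripeptidyl peptidase, rose by 0.75 log2 in DKO and 0.68 in Null cells (adjusted p = 0.0142 and 0.0237), and Lgmn, the asparaginyl endopeptidase that cleaves procathepsins, fell by 0.98 log2 in both lines (-0.98 and -0.98). Dpp7, a dipeptidyl peptidase, was lower in DKO cells in control and after etoposide (-0.94 and -0.90, adjusted p = 0.000309 and 0.000285). Of the 4 partner proteins, Glb1, the β-galactosidase bound by Ctsa, was higher in DKO cells in control and after etoposide (0.68 and 0.74 log2, adjusted p = 0.000431 and 0.000148). Cd74, the invariant chain that Ctss trims, was lower (-0.84 and -0.91, adjusted p = 0.0246 and 0.0097). Of 9 class II presentation genes 7 were tested. H2-Eb1, a class II β chain, had at most 2 counts in each control library and passed the filter only through the etoposide groups, at 27, 40 and 30 counts in Null and 17, 12 and 7 counts in DKO libraries, so no test is given. H2-DMa, a subunit of the peptide exchanger, rose in Null cells by 0.94 log2 (adjusted p = 0.00452). Ifi30, the thiol reductase that works beside cathepsins on antigen, fell with etoposide by 0.64 log2 in Null (-0.64) and by 0.54 in DKO cells (-0.54), with adjusted p = 0.000428 and 0.00143.

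Of 10 genes that sort lysosomal enzymes, 2 were higher and 3 lower in DKO control cells, where 10.9% and 8.39% of all genes were. Igf2r, the large mannose 6-phosphate receptor, stood at 35.6 to 38.1 CPM in Null control and 182 to 189 CPM in DKO control libraries, a difference of 2.32 log2 (adjusted p = 1.26e-10), and at 55.0 to 59.1 and 231 to 238 CPM after etoposide. The lower ones included Gga2, a Golgi sorting adaptor, and Sort1, the receptor sortilin (-0.56 and -0.49 log2, adjusted p = 0.0167 and 0.018). Gnptab, the transferase that makes the mannose 6-phosphate tag, fell with etoposide by 0.78 log2 in Null (-0.78, adjusted p = 3.51e-06) and by 0.49 in DKO cells (-0.49, adjusted p = 0.000147), while M6pr, the small receptor, rose by 0.32 in Null and 0.42 in DKO cells (adjusted p = 0.00628 and 0.00104).

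The osteoclast genes were read beside Ctsk. Of 8 tested, 6 reached the filter's minimum of 10 counts at the median depth in at least 1 library of both control groups, and of these 5 were higher in DKO and 1 was lower, where 10.9% and 8.39% of all genes were. Ocstamp, a fusion protein of osteoclasts, stood at 0.206 to 0.505 CPM in Null control and 8.49 to 11.7 CPM in DKO control libraries, and Acp5, the tartrate-resistant acid phosphatase, at 0.0808 to 0.289 and 2.47 to 3.11 CPM. Dcstamp, another fusion protein, differed by 2.09 log2 (adjusted p = 1.04e-06). The lower one was Mmp9, a gelatinase at 0.519 to 0.888 and 0.244 to 0.357 CPM (-1.17 log2, adjusted p = 0.00255). The other 2 genes passed the filter only through the line where they were higher and are given as counts without a test. Itgb3, an integrin subunit, had 2, 11 and 13 counts in Null control and 0, 1 and 1 in DKO control libraries. Atp6v0d2, a proton pump subunit, had 1, 5 and 3 counts in Null control and 11, 16 and 12 in DKO control libraries. For Ctsk the same difference was 0.04 log2, with a 95% interval of -1.06 to 1.14.

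The genes with the most similar levels were ranked by Pearson correlation of log2 CPM over the 12 libraries among genes with a mean of at least 10 CPM. Where the 4 groups set most of the variation of a gene, the values describe the shape across groups. For Ctsb, Ctsa and Ctsk the spread within groups was large beside their group differences (SD 0.41, 0.11 and 0.68 log2). Their values also reflect differences between replicates. For Ctse the most similar genes were Dnmt3a, Rbpms and Ifi203 (r = 1.00, 0.99 and 0.99), for Ctsh Acap1, Ets2 and Fam107b (0.99, 0.99 and 0.99), for Ctsl Arpin, Arhgef12 and Myof (0.99, 0.99 and 0.99) and for Ctsd they included Nop2 and Wbp1l (0.99 and 0.99). For Ctsc they were Tnfrsf13b, Washc5 and Rcsd1 (0.99, 0.99 and 0.98), for Ctss Rcbtb1, Pdha1 and Ngly1 (0.99, 0.98 and 0.97), for Ctsz Uba7, Ddx58 and Fam162a (0.98, 0.97 and 0.97) and for Ctsb they included Ubap2 and 4632404H12Rik (0.98 and 0.98). Ctsa was most like Dtd1, Polr1a and Mettl13 (0.94, 0.93 and 0.92), and Ctsk, at its few counts, reached only 0.78 with Zfp516, 0.75 with Mfsd11 and 0.74 with Ap2s1. Among the members, Ctsc and Ctse were the most alike pair (r = 0.98) and Ctsl and Ctss the most opposed (r = -0.95).

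The promoter windows of the members were then searched for E-boxes, since the libraries differ in 2 factors that bind them. RefSeq windows on GRCm38.p6, from 250 bases before to 50 after the start, were matched for 7 of the 10 members in 8 windows (none for Ctsb, Ctse or Ctsh), and both strands were searched for CACGTG, its longer form TCACGTGA that contains it, CATGTG, the PU.1-type GAGGAA and the p53 half-site. The 3 members with CACGTG are shown first, up to 30 bases after the start and read 5′ to 3′, with CACGTG and CATGTG, or its reverse complement CACATG, in capitals.

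Ctsd, chr7:142387798-142388077, minus strand: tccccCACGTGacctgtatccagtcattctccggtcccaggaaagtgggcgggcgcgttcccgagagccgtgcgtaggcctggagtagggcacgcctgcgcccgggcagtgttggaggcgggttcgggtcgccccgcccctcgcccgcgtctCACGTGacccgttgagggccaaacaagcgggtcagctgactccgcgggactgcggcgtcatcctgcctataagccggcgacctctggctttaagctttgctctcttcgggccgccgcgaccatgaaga

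Ctsl, chr13:64370491-64370770, minus strand: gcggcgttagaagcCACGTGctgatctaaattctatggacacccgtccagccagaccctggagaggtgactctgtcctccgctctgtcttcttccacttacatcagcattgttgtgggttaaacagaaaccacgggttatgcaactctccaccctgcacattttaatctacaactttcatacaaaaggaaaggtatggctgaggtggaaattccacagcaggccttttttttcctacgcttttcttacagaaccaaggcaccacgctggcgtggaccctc

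Ctsa, chr2:164833523-164833802, plus strand: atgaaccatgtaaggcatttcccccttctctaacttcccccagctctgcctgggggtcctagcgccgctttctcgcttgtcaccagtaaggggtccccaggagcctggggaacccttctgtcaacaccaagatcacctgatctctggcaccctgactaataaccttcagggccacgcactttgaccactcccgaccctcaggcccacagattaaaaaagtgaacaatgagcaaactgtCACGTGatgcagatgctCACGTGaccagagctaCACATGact

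Ctsd held CACGTG at 245 and 98 bases before the start, the nearer one as TCACGTGA. Ctsl held it at 236 bases before. The second of the Ctsa windows held it 12 bases before the start and 5 bases after, both as TCACGTGA, while the first held no searched motif. Among 32817 windows of all genes, 7.15% held CACGTG and 0.975% held TCACGTGA. As given above, Ctsd and Ctsl were higher in DKO cells (Ctsd after etoposide) and Ctsa was called in no comparison by limma-trend on all 12 libraries.

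The windows of 2 members that were lower in DKO cells are shown for comparison.

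Ctss, chr3:95526536-95526815, plus strand: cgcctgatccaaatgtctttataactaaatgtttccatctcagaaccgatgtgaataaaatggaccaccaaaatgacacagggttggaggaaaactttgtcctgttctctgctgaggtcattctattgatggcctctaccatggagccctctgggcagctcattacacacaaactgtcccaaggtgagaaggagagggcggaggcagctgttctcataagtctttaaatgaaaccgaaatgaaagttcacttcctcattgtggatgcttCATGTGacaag

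Ctsc, chr7:88277835-88278114, plus strand: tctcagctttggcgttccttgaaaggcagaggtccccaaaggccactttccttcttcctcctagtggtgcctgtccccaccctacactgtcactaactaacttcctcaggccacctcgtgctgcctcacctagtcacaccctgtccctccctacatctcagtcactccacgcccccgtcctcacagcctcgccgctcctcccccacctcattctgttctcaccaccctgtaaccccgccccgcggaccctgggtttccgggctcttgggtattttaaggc

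Neither window held CACGTG. Ctss held CATGTG at 19 bases after the start, as did 14.2% of all windows on either strand, and Ctss, Ctsc and Ctsk each held 2 copies of GAGGAA, which 28.3% of all windows held at least once. Ctsz held no searched motif, and the p53 half-site was found in 0 member windows and in 8.36% of all windows. A match describes letters in the window and no binding was measured here.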

How the data were processed

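Total RNA from 12 RAW264.7 libraries had been prepared by the authors with a stranded, ribosomal RNA-depleted kit and sequenced as paired ends. Per the labels and the methods, the authors aligned reads to mm10 with HISAT2 and deposited raw counts per gene (featureCounts in the submitters' processing notes, HTSeq in the methods; strand setting and versions not given in the sources used here). 2 RNA kits are named without a map to libraries. Identifiers were matched to GENCODE M21 (99.4% of genes).

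Genes were filtered by edgeR 4.0.16 filterByExpr, scaled by TMM and turned into log2 CPM with a prior count of 3, choices made here; limma-trend with robust empirical Bayes, the authors' stated method, was fitted with limma 3.58.1 to all 12 libraries, in R 4.3.3. Differences are on the log2(CPM) scale with this prior, which shrinks those of low genes. Tests were two-sided with Benjamini-Hochberg adjustment over 18066 genes, called under 0.05. The script was tested on simulated data. Same-numbered replicates of different groups did not deviate together (r from -0.54 to 0.39), so the numbers were not taken as pairs. The 10 members and all lists were chosen with earlier results of these data known. Named from the lists were the called genes with the largest differences, at most 4 per list and comparison, plus Tfeb and Tfe3. For likeness, the genes most correlated with each member were named, at most 3 each; some are not reported here. Alternatives were DESeq2 1.42.0, edgeR's quasi-likelihood test, other scalings, filters and prior, a replicate block, 2-group fits and leaving out each library.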

Additional observations from a re-analysis of the deposited data

Results flagged for a closer look

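The etoposide response differed between the lines, by the interaction term of limma-trend, for 9 of 54 tested genes of the family and its associated lists (49 of which reached the minimum in each group, the 9 among them), where 9.45% of all tested genes did; the lists were chosen with results known, and nothing is read from the count. Of 9 macrophage and fibroblast markers over the low-count filter's minimum in at least 1 library of each group, 4 differed as well (Csf1r, Spi1, Fcgr1 and Pdgfrb). Pdgfra, with 0 counts in all control libraries, passed that filter through Null etoposide libraries alone and is not counted. Among cathepsins these were Ctsh, whose response was larger in DKO cells by 1.31 log2 (adjusted p = 0.00126), and Ctsf, whose response differed by -0.66 log2. Among inhibitors Cst3 fell less in DKO cells, with a difference of 0.55 log2 (adjusted p = 0.0045). Among sorting genes the differences were -0.30 log2 for Igf2r, 0.38 for Nagpa, which uncovers the mannose 6-phosphate tag, and -0.52 for Scarb2, the receptor of β-glucocerebrosidase. Among osteoclast genes they were 1.35 log2 for Nfatc1 and -1.50 for Ocstamp. The targeted Tfeb fell by 1.15 log2 with etoposide in Null cells (-1.15) and differed by 0.01 in DKO cells, so that its responses differed by 1.16 log2 (adjusted p = 0.00499).

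Dixon's test of single outlying libraries was not applied to the groups of 3.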

How the results depend on the processing

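Of 1085 values of single members under other settings, 1024 kept their direction and their side of the threshold, 28 gained a call, 10 lost one (all of Ctsd or Ctsz) and 23 changed sign, all of them differences of Ctsk, Ctsb or Ctsc that were not called. The calls of Ctsh, Ctse, Ctsc, Ctss and Ctsl held under each alternative run; where a call was gained or lost by leaving out 1 library, the value stands beside it in the report. What set these changes was not tested.

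Leaving out 1 library at a time gave 2 to 6 members called with etoposide in Null cells (2 without Null etoposide replicate 2), 3 to 4 in DKO cells, 6 to 7 between lines in control, 6 after etoposide and 1 to 3 for the difference of responses (3 without DKO control replicate 1). The same fits called 5900 to 8036 of all genes with etoposide in Null cells and 5877 to 7895 in DKO cells. Between lines they called 2727 to 4721 in control and 4737 to 7004 after etoposide, and for the difference of responses 1203 to 2038. Members whose responses differed numbered 2 with a mean of at least 1 CPM and with DESeq2, and 5 without the libraries at both ends of the within-group spread (Ctsa, Ctsh, Ctsl, Ctss and Ctsz). Over all genes, 2073 differed between lines in control when only those 2 groups were fitted and 7434 without both end libraries, against 3490. The end libraries' removal also gave 3731 against 1708 genes for the difference of responses. In that fit the kept control libraries of the 2 lines lie on opposite sides of the within-group axis, as given above. With library size alone the summed level in Null etoposide cells was 3489 CPM.

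Sign changes were as follows, with the range over the fits that left out 1 library. For Ctsk the values were, with etoposide in Null cells, -0.065 with DESeq2 and -0.37 to 0.66; between lines in control, -0.019 with library size alone, -0.14 with edgeR, -0.25 with DESeq2 and -0.38 to 0.65; between lines after etoposide, -0.0083 to 0.74; and for the responses, -0.18 without both end libraries and -0.27 to 0.76. For Ctsb they were, between lines in control, 0.45 without both end libraries and -0.30 to 0.24; between lines after etoposide, -0.10 to 0.26; and for the responses, -0.37 without both and -0.15 to 0.39. For Ctsc with etoposide in Null cells they were -0.066 without both and -0.060 to 0.095.

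A fit with the replicate number as a block gave 3, 3, 6, 6 and 1 members called in the 5 comparisons. Over all genes the same fit called 6450, 6420, 3009, 5394 and 1310, against 7148, 7108, 3490, 6079 and 1708 without the block. It ended the call of Ctsd with etoposide in Null cells (adjusted p = 0.0616). Same-numbered libraries share only a number, so this is not a pairing. Depth limits Ctsk alone among the 10, at 2 to 13 counts.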
